A study of Homo sapiens with 12 samples.

Results

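The regions described here are the genomic intervals at which hnRNPK chromatin immunoprecipitation gave a peak in more than 1 of 6 deposited peak lists. Heterogeneous nuclear ribonucleoprotein K (hnRNPK) was immunoprecipitated from cross-linked cells of the human colon carcinoma line HCT116, all of which overexpressed hnRNPK. The conditions, 3 in number and with 2 biological replicates each, were overexpression of the long non-coding RNA CRLM1 (CRLM1-OE), an empty control and an antisense control, and each immunoprecipitate had its own input DNA library. Expression from constructs in 1 cell line limits how far the cells stand for a tumour, and the input libraries had no peak list of their own. The members were chosen by overlap of the measured peaks. The 16214 peaks on chromosomes 1 to 22, X and Y, out of 16768 in all, were pooled, and peaks sharing at least 1 bp were merged into 15464 regions. Of these, 452 regions (2.92%) held peaks from 2 or more lists and are called shared, and 15012 held peaks from 1 list.

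hnRNPK binds RNA and single-stranded DNA through KH domains that prefer runs of cytosine. It works in splicing, RNA stability and translation, and it also acts at gene promoters as a DNA-binding cofactor of transcription. Runs of C or G in double-stranded DNA therefore place a C-rich strand at the site, and such runs are common at promoters in CpG islands. Peak lists from any immunoprecipitation also contain intervals in satellite DNA near centromeres, where copies of a repeat outnumber those placed in the assembly.

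Among the 452 shared regions, 313 were called in 2 lists, 74 in 3, 34 in 4, 20 in 5 and 11 in all 6. The overlap used by the rule was small for a few members. The best overlap between peaks of different lists had a median of 709.5 bp, and it was under 50 bp in 11 members, with 5 bp as the smallest. Just outside the rule, 7 pairs of neighbouring single-list regions from different lists lay under 50 bp apart, the nearest pair by 2 bp. CRLM1-OE replicate 1 had a peak in 298 members, CRLM1-OE replicate 2 in 251, empty control replicate 1 in 88, empty control replicate 2 in 230, antisense control replicate 1 in 143 and antisense control replicate 2 in 140. These counts follow the length of the lists in part, since a longer list has more peaks to share. Sequencing depth per library is not given in the sources used here, and the inputs were not analysed here, so the precision of a peak score is unknown. Peak width varied too. CRLM1-OE replicate 1 (median 506 bp) and empty control replicate 2 (median 516 bp) had narrow peaks, and the 4 remaining lists had medians of 662 to 747 bp.

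The shared regions fell into 3 classes by the position of their midpoint. A region was TSS-proximal when its midpoint was no more than 1 kb from the transcription start site (TSS) of any GENCODE gene, and centromere-near when it lay within 5 Mb of the largest block of alpha-satellite-like periodic sequence of its chromosome in the GRCh38 assembly. Of the members, 138 (30.5%) were TSS-proximal, against 8.26% of single-list regions, and 136 (30.1%) were centromere-near, against 7.32% of single-list regions. The 8 members that met both definitions are counted as centromere-near below, which leaves 130 TSS-proximal regions. The other 186 members (41.2%) met neither definition. The periodic measure does not by itself tell alpha satellite from other satellite arrays, a point taken up below. By annotation of the midpoint, 45.8% of members were intergenic (36.6% of single-list regions), 31.4% intronic (54.1%), 12.6% in an untranslated exon part (3.78%), 6.19% in a non-coding exon (3.13%) and 3.98% in a coding exon (2.40%).

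The sequences of a pair of AT-rich regions called in all 6 lists are given here because their base composition sets them apart from promoters. Each is the central 200 bases of its region in GRCh38, in lower case throughout because it holds no copy of the pentamer GGAAT or its reverse complement ATTCC, the unit from which human satellite II and III arrays are built and by which other members are described below.
AT-rich, chromosome 4 (chr4:49710271-49710470, plus strand): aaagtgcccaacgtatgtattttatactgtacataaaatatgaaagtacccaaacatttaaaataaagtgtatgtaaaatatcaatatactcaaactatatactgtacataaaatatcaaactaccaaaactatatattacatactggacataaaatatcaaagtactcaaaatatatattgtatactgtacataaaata
AT-rich, chromosome 3 (chr3:93470482-93470681, plus strand): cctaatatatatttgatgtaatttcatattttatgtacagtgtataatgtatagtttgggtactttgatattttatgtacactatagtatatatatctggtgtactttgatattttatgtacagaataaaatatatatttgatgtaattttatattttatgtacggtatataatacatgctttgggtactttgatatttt

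Promoters at shared regions had a different sequence. The 150 bases upstream of the RefSeq TSS (GRCh38.p14) are shown for 4 genes whose shared region covers them, on the gene's own strand and with runs of 4 or more C or G in capitals. The stretches of CDC25C, PCBP2 and TTYH2 held 7 such runs each and that of GADD45B held 3. Among covered promoters not shown, that of CD68 held 1 such run and that of CCDC85B held 8. The midpoints of the CDC25C and PCBP2 regions are TSS-proximal, and those of TTYH2 and GADD45B lie further than 1 kb from a TSS. CDC25C encodes a phosphatase that activates CDK1 at mitotic entry, PCBP2 encodes a poly(C)-binding protein related to hnRNPK, TTYH2 encodes a tweety-family membrane protein, and GADD45B encodes a growth arrest and DNA damage inducible protein.
CDC25C (chr5:138338356-138338505, minus strand): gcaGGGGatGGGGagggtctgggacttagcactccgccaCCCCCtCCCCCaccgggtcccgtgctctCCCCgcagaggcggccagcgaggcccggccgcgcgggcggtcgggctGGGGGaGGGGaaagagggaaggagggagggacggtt
PCBP2 (chr12:53451952-53452101, plus strand): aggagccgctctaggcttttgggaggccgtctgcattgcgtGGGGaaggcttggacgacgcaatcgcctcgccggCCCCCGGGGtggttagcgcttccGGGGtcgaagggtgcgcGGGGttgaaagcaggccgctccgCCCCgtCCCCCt
TTYH2 (chr17:74213421-74213570, plus strand): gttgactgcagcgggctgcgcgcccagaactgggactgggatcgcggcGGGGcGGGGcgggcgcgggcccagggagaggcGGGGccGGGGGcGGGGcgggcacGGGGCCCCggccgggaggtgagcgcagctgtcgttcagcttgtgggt
GADD45B (chr19:2475977-2476126, plus strand): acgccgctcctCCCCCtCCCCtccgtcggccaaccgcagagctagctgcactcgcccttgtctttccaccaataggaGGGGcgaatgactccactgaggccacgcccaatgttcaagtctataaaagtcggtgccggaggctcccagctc
Of the 140 protein-coding genes with a TSS within 1 kb of a member, 104 matched an entry in the RefSeq promoter table, in which each promoter runs 250 bases before to 50 after the start. CCCC or GGGG was present in all 104 of these promoters and in 93.8% of the 15345 protein-coding promoters of the table, so its presence alone hardly separates them. The 250 upstream bases held a median of 6 such runs in the member genes and 4 in all genes, and the median GC content was 68.4% against 62.4%. GGGCGG or CCGCCC (the GC box letters) stood in 91.3% of member promoters and 59.2% of all promoters. CCCTCCC or GGGAGGG stood in 41.3% and 30.6%, CCAAT or ATTGG in 38.5% and 36.6%, and TATAAA or TTTATA in 13.5% and 9.63%. These are matches of letters on either strand, not sites, and overlapping motifs were counted separately. The RefSeq promoter of a member gene need not lie inside its shared region, and those of CIRBP and AGPAT3 did not.

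Within each list, peaks in shared regions were compared with the list's other peaks. Shared peaks were more often TSS-proximal, more often centromere-near, richer in G and C, and denser in C or G runs, in each of the 6 lists. The TSS-proximal share of shared peaks was 32.8% in CRLM1-OE replicate 1 (of 317 peaks, Wilson 95% interval 27.9 to 38.2%) and 41.6% in CRLM1-OE replicate 2 (of 257, 35.8 to 47.7%). It was 14.8% in empty control replicate 1 (of 88, 8.84 to 23.7%), 19.7% in empty control replicate 2 (of 249, 15.2 to 25.1%), 31.8% in antisense control replicate 1 (of 148, 24.8 to 39.6%) and 27.3% in antisense control replicate 2 (of 143, 20.6 to 35.1%). The unshared peaks of the same lists had TSS-proximal shares of 3.66 to 13.6%. The mean difference, shared minus unshared, was 20.2 ± 6.63 percentage points (SD, n = 6 lists; 11.1 to 28.1; exact two-sided sign-flip permutation p = 0.03125, the smallest that 6 lists allow). The intervals cover counting error only.

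**Figure D1:**
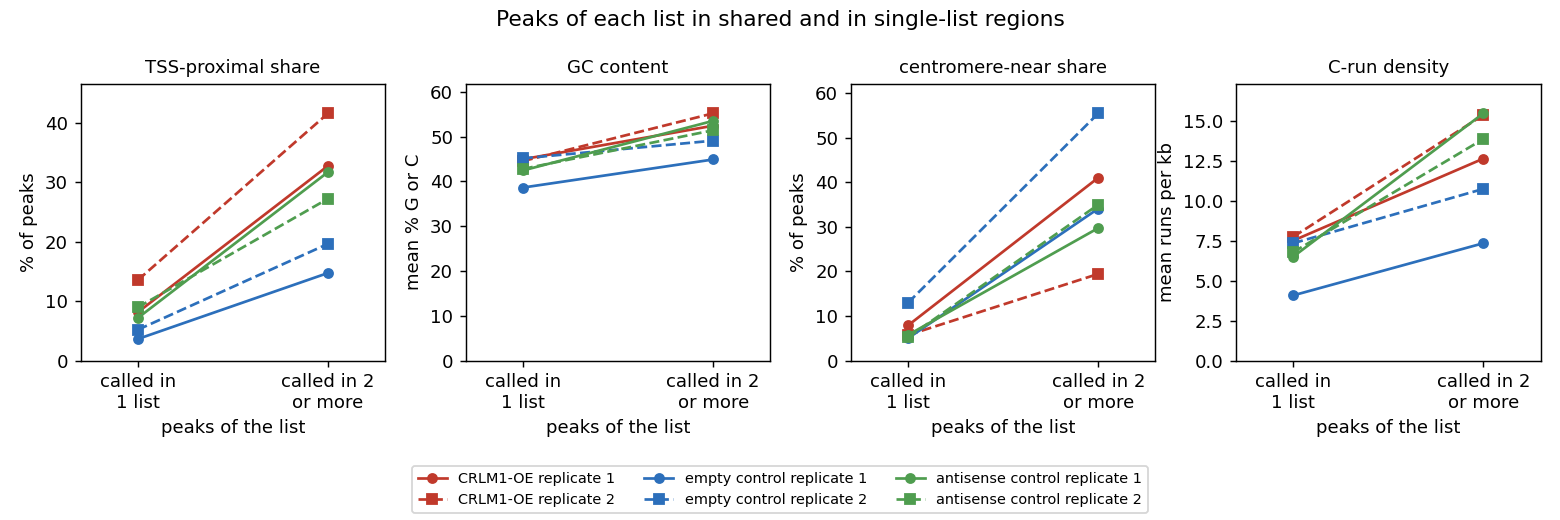
Values of 4 measures for the peaks of each list in single-list regions (left) and shared regions (right): TSS-proximal and centromere-near shares (% of peaks), mean GC content (%) and mean C or G runs per kb. Each line is 1 list, and every line rises in every panel.

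The centromere-near share rose by 28.7 ± 9.56 points (SD, n = 6 lists; 13.7 to 42.4; exact p = 0.03125), GC content by 8.00 ± 2.71 points (3.94 to 11.1; exact p = 0.03125) and the density of C or G runs by 5.91 ± 2.35 per kb (3.26 to 8.97; exact p = 0.03125). The adjusted p over these 4 sign-flip permutation tests was 0.03125 for each. A shared region enters the values of every list that called it, so the 6 differences are not independent of each other. Score moved with membership, and its part in these differences was not tested: the median score percentile of shared peaks within their list was 78.6 to 90.5. With the centromere-near peaks left out, an alternative chosen after seeing the data, the differences were 32.6 points in TSS-proximal share, 13.1 points in GC content and 11.4 runs per kb (exact sign-flip permutation p = 0.03125 for each).

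**Figure D2:**
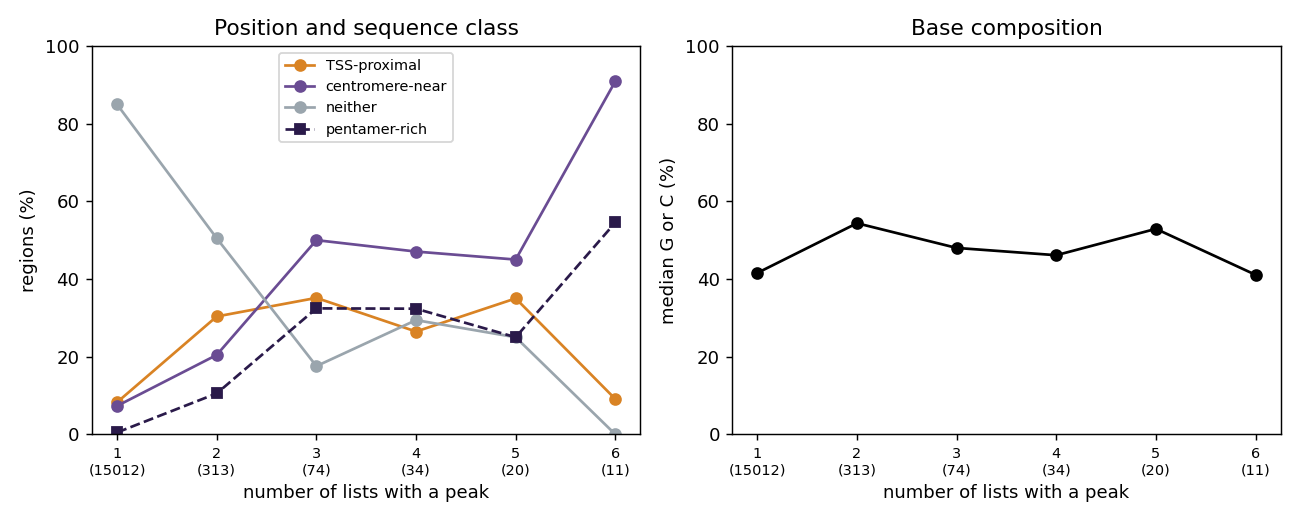
Left, percent of regions in each position or sequence class against the number of lists with a peak (number of regions in brackets). Right, median GC content (%) of the same regions. The centromere-near share is 7.32% at 1 list, 20.4% at 2 and 90.9% at 6, while the TSS-proximal share is highest at 3 lists (35.1%).

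The class composition changed with the number of lists. TSS-proximal regions were 8.26% of those in 1 list, 30.4% in 2, 35.1% in 3, 26.5% in 4, 35.0% in 5 and 9.09% (1 of 11) in all 6. Centromere-near regions were 20.4% of those in 2 lists, 50% in 3, 47.1% in 4, 45.0% in 5 and 90.9% in 6. The regions called in all 6 lists were thus mostly those near centromeres. Median GC content was 41.6% in 1 list, 54.4% in 2, 48.0% in 3, 46.1% in 4, 52.9% in 5 and 41.1% in 6. Region width rose from a median of 619 bp in single-list regions to 1375 bp in shared regions, which the merging of peaks produces in part by itself. Before merging, the peaks of every list were also wider in shared regions (medians 766 to 1403 bp) than elsewhere (498 to 728 bp). A wider peak has more room to overlap another, and the part of width in membership was not tested.

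The 136 centromere-near members were mainly satellite. Regions with 20 or more copies of GGAAT or ATTCC per kb, a threshold set after seeing the data, made up 79 of them (58.1%), against 70 of the 1099 centromere-near single-list regions (6.37%), and no such member lay elsewhere. Over all single-list regions the share was 0.493%. In the 79 members a median of 64.6% of bases matched at the offsets used for the blocks, where a block needs more than 42%. Of them, 66 lay inside a block. Pentamer arrays can therefore count as block sequence, and how far the definition itself places them near centromeres was not tested. In these 79 regions the pentamer density was 46.9 to 127 per kb with a median of 108 per kb, the GC content had a median of 41.0%, and the median density of C or G runs was 0.471 per kb. Another 19 centromere-near members had alpha-satellite-like periodicity and fell below the pentamer threshold, with 0 to 6.40 copies per kb, and 38 passed neither threshold. Chromosome 4 held 28 centromere-near members, 26 of them satellite-rich, chromosome 21 held 21 (15 satellite-rich), chromosome 20 held 16 (9), chromosome 10 held 13 (11), and all 14 members on chromosome Y were centromere-near (4 satellite-rich). None of the satellite-rich regions had a protein-coding TSS within 1 kb.

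**Figure D3:**
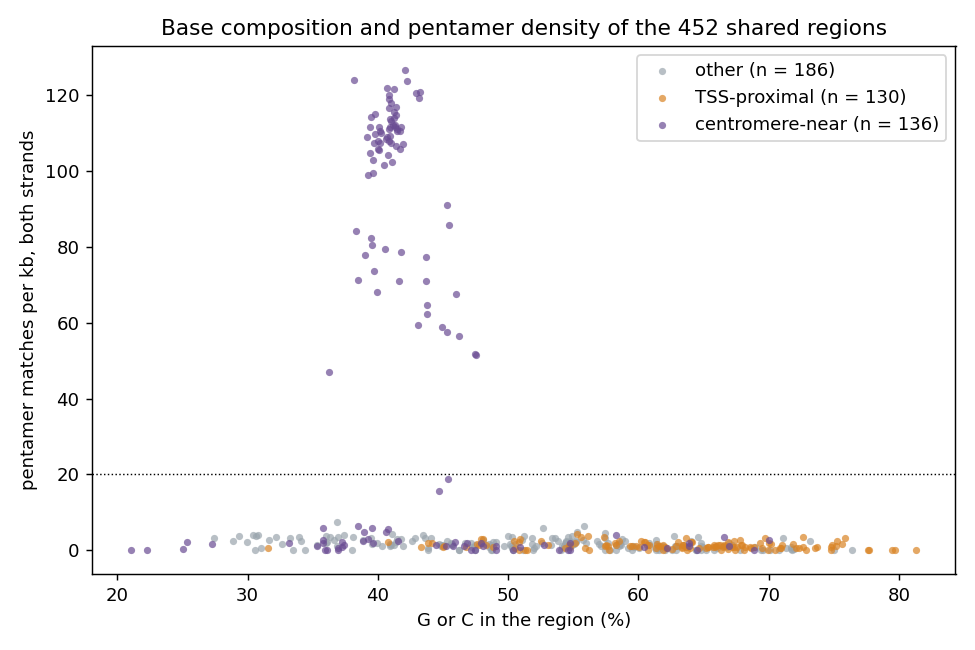
GC content (%) against the density of the GGAAT or ATTCC pentamer (matches per kb, both strands) in the 452 shared regions, coloured by class. The dotted line marks 20 per kb, and all 79 regions above it are centromere-near with GC content from 36.2 to 47.5%.

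The lists did not contribute equally to the centromere-near class, and the split did not follow the conditions. CRLM1-OE replicate 1 had a peak in 86.8% of the 136 regions (Wilson 95% interval 80.0 to 91.5%) and empty control replicate 2 in 89.0% (82.6 to 93.2%). CRLM1-OE replicate 2 had a peak in 35.3%, empty control replicate 1 in 22.1%, antisense control replicate 1 in 31.6% and antisense control replicate 2 in 35.3%. The replicates of a condition thus stood far apart in both the CRLM1-OE and the empty control groups. The 2 lists with most of these regions were also the 2 with the narrowest peaks. Repeated sequence moved with the class, and its part in the calls was not tested: at least 50% of the sampled 32-base stretches occurred more than once in the assembly in 47 of the 136 centromere-near members (34.6%), in 3 of the 130 TSS-proximal members and in 1 of the other 186. Over all members the count was 51 (11.3%), against 0.806% of single-list regions.

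**Figure D4:**
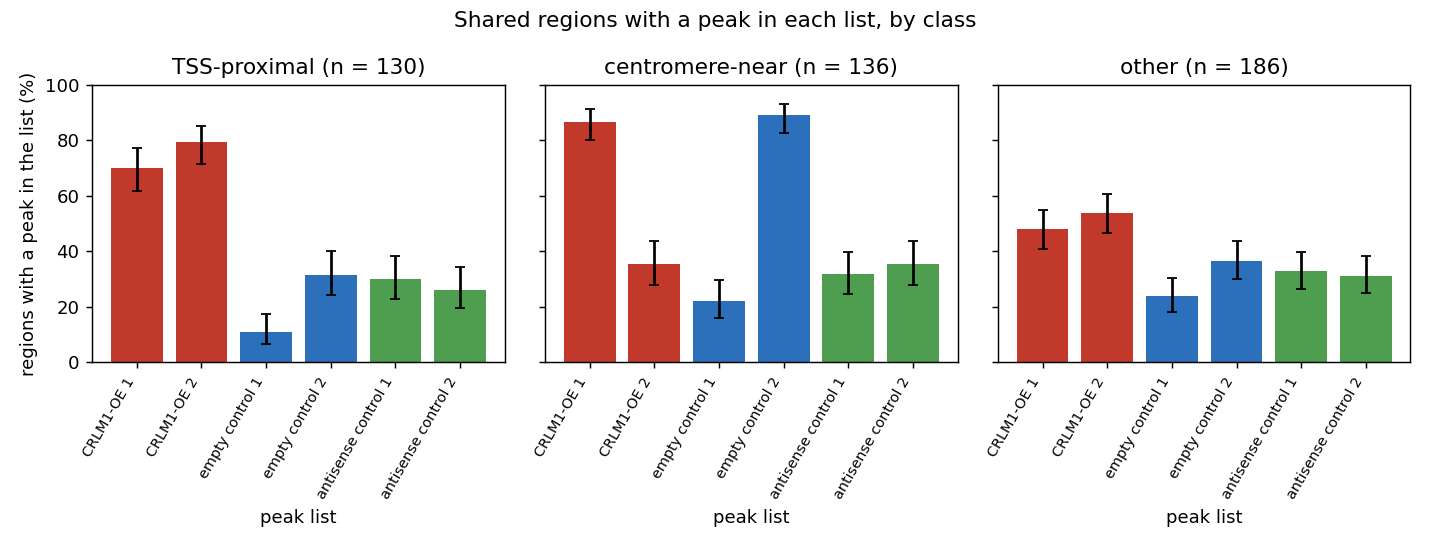
Percent of shared regions with a peak in each of the 6 lists, by class, with Wilson 95% intervals over regions. The CRLM1-OE lists cover 70.0 and 79.2% of the TSS-proximal regions, and CRLM1-OE replicate 1 and empty control replicate 2 cover 86.8 and 89.0% of the centromere-near regions.

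In the TSS-proximal class the CRLM1-OE lists had the highest coverage. CRLM1-OE replicate 1 had a peak in 70.0% of the 130 regions (Wilson 95% interval 61.6 to 77.2%) and CRLM1-OE replicate 2 in 79.2% (71.5 to 85.3%). The control lists had one in 10.8% (empty control replicate 1), 31.5% (empty control replicate 2), 30.0% (antisense control replicate 1) and 26.2% (antisense control replicate 2). Of all 452 members, CRLM1-OE replicates 1 and 2 had a peak in 65.9 and 55.5%. The empty control replicates had one in 19.5 and 50.9% and the antisense control replicates in 31.6 and 31.0%. CRLM1-OE replicate 1 and the antisense lists were thus near their share over all members. The CRLM1-OE lists also had more peaks in all, 4339 and 3163 against 1619 to 2607, so the coverage of a class cannot be told apart from list length. In 42 of the 130 regions only the CRLM1-OE lists had a peak, in 36 CRLM1-OE and antisense control, in 30 CRLM1-OE and empty control, in 15 all 3 conditions, and in 7 only control lists. Those 42 regions are members only because both CRLM1-OE lists called them, so CRLM1-OE coverage of them was fixed by the rule. The midpoint lay downstream of the nearest TSS in 91 of the 130, with a median offset of 247.5 bp. The nearest TSS was that of a protein-coding gene in 78, of a lncRNA in 28, of an snRNA in 8, of a microRNA in 7 and of a snoRNA in 5.

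As a share of a list's own shared peaks, the conditions were compared by tests that could not pass, since the smallest p they allow is above 0.05. The TSS-proximal share was 37.2 ± 6.24% (SD, n = 2) in the CRLM1-OE lists, 17.2 ± 3.47% (n = 2) in those of the empty control and 29.5 ± 3.17% (n = 2) in those of the antisense control. The groups did not overlap, and the difference was 19.995 percentage points against the empty control (exact permutation p = 0.33, the smallest that 2 against 2 allows) and 7.71 points against the antisense control (exact permutation p = 0.33). Against the 4 control lists together it was 13.9 points (exact two-sided permutation p = 0.13, where 0.0667 is the smallest possible). When CRLM1-OE replicate 2 was left out and the shared regions were defined anew, CRLM1-OE lay at -0.760 points relative to the antisense control. With the members unchanged, CRLM1-OE replicate 1 alone (32.8%) was above both antisense control lists (31.8 and 27.3%). The part of the changed set of members in the reversal was not tested. Between lists of like width the CRLM1-OE value was the higher in each of 4 pairs: by 13.1 points for CRLM1-OE replicate 1 against empty control replicate 2, and by 26.9, 9.88 and 14.4 points for CRLM1-OE replicate 2 against empty control replicate 1 and antisense control replicates 1 and 2. Each pair is 1 list against 1, with no test, and the last 3 share a list. The pairing by width was chosen after seeing the data. Regions shared by the CRLM1-OE lists alone, 42 of 82 of them TSS-proximal, enter only the CRLM1-OE values. The unshared peaks had TSS-proximal shares of 8.16 and 13.6% in the CRLM1-OE lists. Those shares were 3.66 and 5.22% in the empty control and 7.19 and 8.99% in the antisense control lists. A higher CRLM1-OE value than in the empty control was therefore not particular to shared peaks.

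GC content of shared peaks was 53.8 ± 1.95% for CRLM1-OE, 47.0 ± 2.96% for empty control and 52.4 ± 1.48% for antisense control lists (SD, n = 2 each). The differences were 6.81 points (exact permutation p = 0.33) and 1.35 points (exact permutation p = 0.667). The centromere-near share was 30.2 ± 15.2%, 44.8 ± 15.1% and 32.3 ± 3.70%, and the CRLM1-OE minus control differences of -14.5 points (exact permutation p = 0.667) and -2.12 points (exact permutation p = 1) were within the spread between replicates. C or G runs per kb were 14.0 ± 1.93, 9.05 ± 2.40 and 14.7 ± 1.13, with differences of 4.96 (exact permutation p = 0.33) and -0.664 (exact permutation p = 0.667). The lowest adjusted p over these 12 permutation tests was 0.667.

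**Figure D5:**
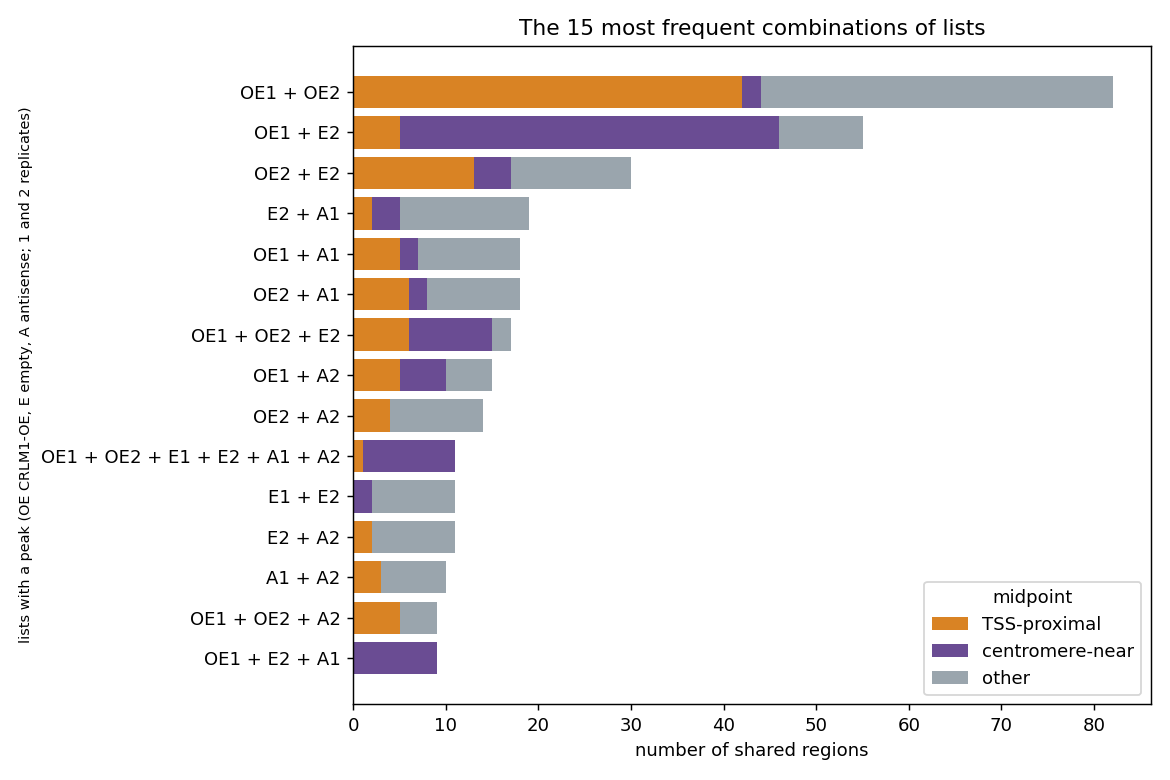
Number of shared regions for the 15 most frequent combinations of lists, coloured by class. The pair of CRLM1-OE lists leads with 82 regions, 42 of them TSS-proximal and 2 centromere-near, and CRLM1-OE replicate 1 with empty control replicate 2 follows with 55 regions, 41 of them centromere-near.

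The combinations of lists showed the same split. The CRLM1-OE replicates alone shared 82 regions, of which 42 were TSS-proximal, 2 centromere-near and 38 other. CRLM1-OE replicate 1 and empty control replicate 2 alone shared 55, of which 5 were TSS-proximal, 41 centromere-near and 9 other. CRLM1-OE replicate 2 and empty control replicate 2 alone shared 30, with 13, 4 and 13 in these classes. The replicates of the empty control alone shared 11 regions, none TSS-proximal, and those of the antisense control alone shared 10, of which 3 were TSS-proximal. Counting all members, the CRLM1-OE replicates had 167 regions in common, which was 56.0% of the members in replicate 1 and 66.5% of those in replicate 2. The empty control replicates had 49 in common (55.7% and 21.3%) and the antisense control replicates 54 (37.8% and 38.6%).

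The 31 regions in 5 or 6 lists were 19 centromere-near, 7 TSS-proximal and 5 other, and 11 were satellite-rich. One of them led most of the control lists: the AT-rich interval chr4:49708707-49712035, 25.01% G or C, from which a sequence is printed above. Its peak scores were 467 and 305 in the CRLM1-OE replicates, 695 and 678 in the empty control and 875 and 691 in the antisense control, and it ranked first in 3 of the 4 control lists. The score is the caller's own, starts at 50 in every list, and its scale is not stated. A similar AT-rich interval, chr3:93470206-93470958 (27.3% G or C), scored 655, 380, 111, 243, 685 and 529 in the lists in the same order, and ranked 2 in both antisense lists. The satellite interval chr4:49118126-49121625 scored 671, 222, 52.0, 1319, 78.4 and 180, and ranked first in empty control replicate 2. On chromosome Y the interval chrY:11291630-11296398 scored 548, 218, 155, 855, 120 and 340. For both satellite intervals the empty control replicates were far apart, at 52.0 against 1319 and 155 against 855. The remaining intervals in all 6 lists were further satellite arrays on chromosomes 4 and 5, 2 AT-rich intervals on chromosome 8, and the RNU5E-1 region on chromosome 1.

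Of the regions in 5 lists, 9 were centromere-near, among them satellite arrays chr10:41874741-41876004, chr10:41880491-41884848, chr20:31059824-31062163, chr21:7257813-7259602 and chr21:10715547-10719392. One, chr21:8219813-8220321, had RNA5-8SN2, a gene for 5.8S ribosomal RNA, as its nearest gene, with the midpoint 7495 bp from that gene's start, and 85.4% of its sampled stretches were repeated in the assembly. Another was chr15:20339937-20342569 (64.5% G or C), with scores of 814 and 978 in CRLM1-OE replicate 1 and empty control replicate 2 against 54.8 to 148 in the 3 other lists that called it. The 5 that were neither TSS-proximal nor near a centromere lay nearest to MIR3918, THOC6, CCDC200, GH1 and SNORA68. The region nearest GH1, the growth hormone gene, was chr17:63916492-63917400, which ranked first in CRLM1-OE replicate 1 with a score of 822. The TSS-proximal ones lay nearest to CDC25C, PLXNB2, the pseudogene DUX4L26, ROCK1P1 (annotated as a lncRNA gene), and the microRNA genes MIR3191 and MIR3613, the last of which lies beside TRIM13. At DUX4L26 and ROCK1P1 54.0 and 84.8% of the sampled stretches were repeated in the assembly, against 0 to 3.57% at the others.

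At the level of genes, 140 of 20033 protein-coding genes (0.699%) and 65 of 18866 lncRNA genes (0.345%) had a TSS within 1 kb of a shared region. The protein-coding genes were spread over 120 regions, of which 16 had TSSs on both strands. Regions in 4 or more lists with a protein-coding TSS within 1 kb included those at CDC25C, SLC35B2, TRIM13, INTS6, PKM, CLDN6 with HCFC1R1 and THOC6, CD68, TLCD1 with NEK8, TTYH2, GADD45B and PLXNB2. The region at HCFC1R1 and THOC6, genes for a nuclear export regulator and a subunit of the THO mRNA export complex, was chr16:3019978-3025394. It scored 309 and 428 in the CRLM1-OE replicates, 121 and 59.1 in the empty control and 90.4 in antisense control replicate 1, and was not called in antisense control replicate 2. CLDN6, a tight junction claudin gene, has its GENCODE start at the same region, whereas its RefSeq start lies outside it. The 150 bases upstream of the RefSeq starts of NEK8 and PLXNB2 also lay outside the regions named for them.

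The GADD45B region chr19:2475846-2480797 scored 60.01 and 369 with CRLM1-OE and 166 and 123 with the antisense control, and was absent from both empty control lists. The same pattern, both CRLM1-OE and both antisense lists without the empty control, was seen at PKM, which encodes the glycolytic enzyme pyruvate kinase (112, 276, 65.6 and 71.2), and at CD68, a macrophage lysosomal glycoprotein gene (130, 234, 95.2 and 68.6). At PKM and CD68 both antisense scores were below both CRLM1-OE scores, and at GADD45B they lay between them. By rank within each list, PKM kept this order (105 and 22 with CRLM1-OE, 477 and 243 with antisense). CD68 did not (76 and 29 against 52 and 294), and GADD45B ranked 1512 and 6 against 6 and 12. CDC25C and TRIM13, a ubiquitin ligase gene, had the other arrangement, with peaks in every list but CRLM1-OE replicate 2. CDC25C scored 61.3 in CRLM1-OE replicate 1, 66.0 and 68.9 in the empty control and 59.6 and 115 in the antisense control. PLXNB2, a semaphorin receptor gene, was called in every list but empty control replicate 1 with scores of 57.6 to 78.3.

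Among regions in 2 or 3 lists with a protein-coding TSS within 1 kb, the 15 with the best mean score percentile were at TM7SF2, CIRBP, P4HB, CCN1, H1-10, ISYNA1, SMIM47, ZC3H4 with SAE1, ZNF34, NPAS4, FIBP with CCDC85B, PCBP2, FAM83E, C11orf98 with CSKMT, and AGPAT3. Both CRLM1-OE replicates and no control had a peak at CIRBP, a cold-inducible RNA-binding protein gene (scores 228 and 150), at P4HB, the protein disulfide isomerase gene (104 and 337), at CCN1, a secreted matricellular protein gene (111 and 230), and at PCBP2 (139 and 91.1). ISYNA1, the inositol-3-phosphate synthase gene (226 and 107), SMIM47, ZC3H4 with SAE1 and ZNF34 were called in the same 2 lists. Genes are placed here by their GENCODE starts. The 150 bases upstream of the RefSeq starts of CIRBP, P4HB, SMIM47, ZC3H4, NPAS4 and AGPAT3 lay outside the regions named for them. The absence of a peak from a list says that the caller's threshold was not passed there, not that hnRNPK was absent. The sterol reductase gene TM7SF2 was called in CRLM1-OE replicate 2 (146) and both antisense replicates (118 and 115), and the linker histone gene H1-10 in CRLM1-OE replicate 2 (140) and antisense control replicate 2 (104). None of these 15 regions had a peak in an empty control list, which was also so for 74 of all 108 regions in 2 or 3 lists with a protein-coding TSS within 1 kb (68.5%).

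Counts over gene lists were set against the 0.699% of all protein-coding genes. Of 56 immediate-early and growth-response genes, 6 had a TSS within 1 kb of a member: CCN1, ZFP36, KLF6, GADD45B, JUND and KLF2. KLF6, a zinc-finger transcription factor gene, scored 259 and 199 with CRLM1-OE and 122 in empty control replicate 2, and KLF2 scored 51.2 and 54.9 with CRLM1-OE alone. Of 50 hnRNP and SR protein genes there were 3, among them PCBP2 and the splicing repressor gene PTBP1, called in empty control replicate 2 (67.4) and antisense control replicate 1 (56.6). Translation factors gave 3 of 69 (EIF4A1, EIF1 and EIF4E2), with EIF4A1, an RNA helicase gene, at 69.1 and 98.5 in the CRLM1-OE replicates alone. Cell cycle genes gave 2 of 48 (CDC25C and E2F3), Kruppel-like factors 2 of 18 (KLF6 and KLF2) and ribosomal protein genes 2 of 86 (RPL3 and RPS2). One gene each came from the apoptosis regulators (TRADD, of 37), the heat shock and chaperone list (CIRBP, of 32) and the Wnt pathway (APC2, of 53). The adhesion and invasion genes (of 45), cytoskeleton (EZR, of 34) and histones (H1-10, of 97) also gave 1 each. Of 508 ZNF genes, 3 were at members. None of 34 p53 targets, 43 TGF-beta and BMP pathway genes, 85 proteasome and ubiquitin genes or 32 abundant lncRNA genes was at a member. Over all lncRNA genes the share was 0.345%. At such low shares, lists of these sizes need not hold any gene at a member. No test was made on these lists, and with counts this small the lists are not ranked.

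Small RNA genes were touched more often by members than by single-list regions, with snRNA genes at 10 members, microRNA genes at 10 and snoRNA genes at 6. Spliceosomal snRNAs form the catalytic and recognition core of the spliceosome, and their genes are short, strongly transcribed units with their own upstream elements. A gene of an snRNA, snoRNA, microRNA or other small RNA class was touched by 26 members (5.75%), against 0.38% of single-list regions. Shared regions are wider, so the comparison was repeated with 500 bp around each midpoint, which gave 8 members (1.77%) against 0.226% of single-list regions. Of 23 named spliceosomal and U7 snRNA genes, a list written after the regions were seen, 9 were touched by a shared region, 3 by a single-list region and 11 by none. Near-identical copies of some of these genes exist in the genome, RNU4-1 beside RNU4-2 and the RNU6 genes among them, and reads may be assigned to either copy.

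The 100 bases upstream of 4 of these genes are shown on the gene's strand (GRCh38, gene starts from GENCODE), with the letters TATA in capitals, because the U6 gene is known to be transcribed by RNA polymerase III from a TATA-containing promoter and the other 3 by RNA polymerase II.
RNU5E-1 (chr1:11908052-11908151, plus strand): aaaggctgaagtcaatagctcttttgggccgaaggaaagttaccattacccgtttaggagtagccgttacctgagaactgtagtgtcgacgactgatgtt
RNU5A-1 (chr15:65295951-65296050, plus strand): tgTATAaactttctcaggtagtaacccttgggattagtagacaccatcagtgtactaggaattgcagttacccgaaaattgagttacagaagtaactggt
RNU12 (chr22:42615144-42615243, plus strand): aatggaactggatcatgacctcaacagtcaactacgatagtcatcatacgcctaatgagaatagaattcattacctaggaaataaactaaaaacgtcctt
RNU6-1 (chr15:67840046-67840145, minus strand): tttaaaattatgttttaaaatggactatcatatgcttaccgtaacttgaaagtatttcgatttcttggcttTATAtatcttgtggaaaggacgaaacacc
TATA on the gene's strand stood in the 40 bases before the gene in 2 of the 9 shared snRNA genes (RNU4ATAC and RNU6-1), in 5 of the 23 listed and in 7.82% of 27305 RefSeq promoters.

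RNU5E-1, a U5 snRNA gene, was called in all 6 lists, with scores of 371 and 570 with CRLM1-OE, 51.8 and 151 with the empty control and 127 and 120 with the antisense control, and it ranked first in CRLM1-OE replicate 2. RNU5A-1 scored 222 and 64.6 with CRLM1-OE and 97.9 in antisense control replicate 2. RNU5F-1 scored 212 and 110 with CRLM1-OE and 118 in empty control replicate 2, and RNU5D-1 scored 89.1 and 53.7 with CRLM1-OE alone. All of these U5 gene regions were in both CRLM1-OE lists, which the rule itself fixed for RNU5D-1, and that of RNU5E-1 was also in every control list. The remaining listed U5 gene, RNU5B-1, was no member, with a peak in CRLM1-OE replicate 2 alone (50.1). RNU4-2, the major U4 gene, scored 197 in CRLM1-OE replicate 2 and 173 in empty control replicate 1, where it ranked 2. RNU6-1 scored 397 in CRLM1-OE replicate 1 and 61.8, 62.1 and 68.7 in the empty control lists and antisense control replicate 1. RNU2-2P scored 51.2 and 238 with CRLM1-OE and 107 in empty control replicate 1. RNU12 and RNU4ATAC, genes of the minor spliceosome, scored 55.0 and 59.5, and 53.9 and 70.7, with CRLM1-OE, and RNU12 was also called in empty control replicate 2, with a higher score of 79.7. CRLM1-OE replicates 1 and 2 each had a peak at 8 of the 9 genes, the empty control lists at 4 each and the antisense lists at 2 each. RNU5D-1 and RNU4ATAC are among the 9 only because both CRLM1-OE lists called them. Over all 452 members the shares were 65.9 and 55.5% for CRLM1-OE replicates 1 and 2. They were 19.5 and 50.9% for the empty control replicates and 31.6 and 31.0% for the antisense control replicates. With 9 genes and lists of unequal length, a difference between conditions at these genes was not tested. RMRP, the RNA of RNase MRP, was called in both CRLM1-OE lists (56.8 and 105) and empty control replicate 2 (169), and it was the 1 gene of 13 other abundant non-coding RNA genes at a member. The snoRNA genes at members included SNORD118, which encodes U8, SNORD104, SNORD43 and SNORD60.

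The 186 members that were neither TSS-proximal nor centromere-near differed from single-list regions of the same class in composition. Their median GC content was 53.3% against 40.8%, their CpG observed-to-expected ratio 0.280 against 0.187, and their median density of C or G runs 13.4 against 4.03 per kb. G or C made up 60% or more of 26.9% of them, against 5.55%. Genic position differed less, since 57.5% lay in a protein-coding gene against 47.7%. They were closer to promoters, with a protein-coding TSS within 5 kb in 19.4% against 5.90%, and a median distance of 21234.5 bp against 79411.5 bp. For comparison, TSS-proximal members had a median GC content of 63.5% (60.3% in single-list TSS-proximal regions), a CpG ratio of 0.711 (0.641) and 21.4 runs per kb (17.2), and centromere-near members 41.1% (41.5%), 0.596 (0.209) and 0.852 runs per kb (3.31). The pattern of high GC content and frequent C or G runs in shared regions was therefore carried by regions away from centromeres.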

How the data were processed

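ChIP-seq libraries were 151-nt paired-end reads from 6 immunoprecipitates and 6 inputs (12 samples). According to the study's methods and the submitters' processing notes, reads were trimmed with cutadapt, aligned to GRCh38 with Bowtie2 and peaks were called with MACS2 for each immunoprecipitate against its input. The authors deposited 1 peak list per immunoprecipitate. Its score column is the deposited peak score, whose lowest value is 50 in every list, and whose scale is not stated. The methods name a q-value cutoff for MACS2, whereas a floor of 50 resembles the −10 log10 p scale of an older version, so the setting behind the lists is uncertain. No counts or depths were used here. Scores were not compared by test.

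Peaks were merged when they shared at least 1 bp. Genes and TSSs came from GENCODE release 44, and sequence measures from hg38, the same build. Periodic blocks were the longest run of 10-kb windows with more than 42% of bases matching at an offset of 170 to 172 bases, joined within 1 Mb. Repeated 32-base stretches were sampled every 10 bases. The test within lists was an exact sign-flip permutation over 6 lists, and the test between conditions an exact permutation of list labels on the absolute difference of means, both two-sided with Benjamini-Hochberg adjustment. Python 3.11.15, numpy 2.4.6, pandas 2.3.3, scipy 1.17.1, pysam 0.24.0 and samtools 1.23.1 were used, and merging and tests were checked on simulated data. Alternatives were score and overlap thresholds, TSS and block distances, fixed windows, class restrictions and leaving out each list.

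Genes were named by rule: protein-coding genes within 1 kb of regions in 4 or more lists, those at the 15 best-scoring regions in 2 or 3 lists, regions in 5 or 6 lists with their nearest gene, and gene-list members. Members and lists were chosen with earlier results of these data known. The snRNA and other non-coding RNA lists, and the RNA genes named from them, were chosen after their values were seen. Some genes and sequences are not reported here.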

Additional observations from a re-analysis of the deposited data

How the results depend on the processing

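The number of shared regions was 452, and it was 263 when each list was cut to its 1000 best-scoring peaks, 295 with peaks above each list's median score, and 273 to 411 when 1 list was left out (273 without CRLM1-OE replicate 1, 299 without CRLM1-OE replicate 2). The differences between shared and unshared peaks kept their sign in every alternative run. With 5 lists the exact sign-flip permutation test cannot go below 0.0625, and with 1 list left out the differences were 15.5 to 23.1 points in TSS-proximal share, 6.21 to 8.92 points in GC content, 25.5 to 38.0 points in centromere-near share and 4.56 to 6.70 C or G runs per kb. With each list cut to its 1000 best-scoring peaks the run density difference was 3.12 per kb (exact permutation p = 0.0625), where the cause was not tested. The tests between conditions could not pass in any setting, because 2 against 2 lists and 2 against 4 lists allow no exact p under 0.05.

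Between conditions several directions reversed when 1 list was left out, which also defined the shared regions anew. Over those settings the CRLM1-OE minus antisense control difference was -0.760 to 9.38 points in TSS-proximal share, -1.56 to 3.03 points in GC content, -7.75 to 19.2 points in centromere-near share and -3.73 to 1.23 runs per kb. Against the empty control the centromere-near difference was -26.5 to 6.56 points, and against the 4 control lists it was -12.5 to 12.9 points, with -0.759 to 3.72 for runs per kb. All reversals but the run density against the antisense control came from leaving out CRLM1-OE replicate 2. With a 1 Mb distance the centromere-near difference from the antisense control was 0.303 points. Among TSS-proximal peaks alone GC content differed by -2.40 points from the antisense control and by -0.378 points from the 4 control lists, and run density by -1.42 per kb from the 4 control lists. The cause of these reversals was not tested.

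With the replicate numbers as pairs (the replicate block), the TSS-proximal differences were again 19.995 and 7.71 points (exact sign-flip permutation p = 0.5, the smallest 2 pairs allow), so the block could not change a call. The number only names a replicate, and with 2 numbers a check of the pairing was not made. Depth is unknown, so a missing call is not evidence of less binding.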

Other observations

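Shared regions were also found on sequences outside chromosomes 1 to 22, X and Y, which the members leave out. The 554 peaks on those sequences merged into 268 regions, of which 122 were called in 2 or more lists, 5 of them in all 6. Their peaks were divided between the lists much as those near centromeres were, with 136 from CRLM1-OE replicate 1, 127 from empty control replicate 2, 47 from CRLM1-OE replicate 2, 41 from antisense control replicate 1, 31 from antisense control replicate 2 and 26 from empty control replicate 1. With these sequences included, 574 regions were shared.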
